A study of Mus musculus with 24 samples.

Results

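The arms of the miR-122 hairpin, mmu-miR-122-5p and mmu-miR-122-3p (miR-122-5p and miR-122-3p from here), were followed across 24 small RNA libraries of mouse liver. These 2 names were taken from the 1908 mature miRNA names of the count table, 1324 of which had a count in any library. Both passed the filter on low counts. All animals were C57Bl/6J mice. In AM132 (8 libraries) the mice had a high fat diet for 11 weeks and then intravenous injections of 3.3 mg/kg of a 16-mer locked nucleic acid oligonucleotide against miR-132 on each of 3 consecutive days. In AM608 (8 libraries) mice on the same diet and schedule received a 15-mer of the same chemistry against miR-608, a primate miRNA. Both obese groups were killed 7 days after treatment. RCD (8 libraries) are age-matched mice on regular chow for which no injection is described, so diet and injection differ together in any comparison with RCD. No group holds obese mice without an oligonucleotide. The sources used here give no age.

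In GRCm38, Mir122 lies on chromosome 18 from 65248861 to 65248926 on the plus strand, inside an exon of the long non-coding RNA AC157910.3 (65244287 to 65252621, GENCODE M21). RefSeq places a second hairpin, Mir122b, over the same bases (65248863 to 65248921). The counts have no name for products of Mir122b. No strand was recorded here for that hairpin, so the overlap does not show whether its products share sequence with those of miR-122. The rule that assigned reads to names is unknown, and whether any Mir122b reads were counted as miR-122 was not tested. Coordinates are those of the reference used here and not of a build stated for the counts.

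miR-122 is the classical miRNA of the hepatocyte, made in very large amounts there and hardly at all in other cells, under the control of liver transcription factors such as HNF4A. The 5p strand is the guide that Argonaute keeps and that represses target mRNAs, and the 3p strand is the passenger that is mostly discarded when the duplex is loaded. Mice without miR-122 have low plasma cholesterol and go on to fatty and fibrotic liver, and the human form is a host factor of hepatitis C virus.

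Mature sequences from RefSeq (GRCm38.p6) were matched for 6 of the 8 names looked up, which were miR-122-5p, miR-122-3p and the 6 shown here. The first 5 sequences are the miRNAs that, after miR-122-5p, filled most of the libraries, and the last is the passenger strand of miR-192, whose ratio to its guide moved with that of miR-122 in 2 libraries. Capitals mark the seed, bases 2 to 8.
miR-148a-3p: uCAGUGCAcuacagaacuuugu
miR-21a-5p: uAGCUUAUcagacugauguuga
miR-192-5p: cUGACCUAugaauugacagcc
let-7f-5p: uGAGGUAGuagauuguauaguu
let-7g-5p: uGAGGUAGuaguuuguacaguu
miR-192-3p: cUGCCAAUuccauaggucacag
The let-7 strands share the seed GAGGUAG, and the arms of miR-192 have different seeds. miR-148a-3p comes from chromosome 6 (51269829 to 51269850, minus strand), miR-192-5p from chromosome 19 (6264857 to 6264877, plus strand) and miR-192-3p from the same hairpin (6264900 to 6264921).

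The libraries held 5689143 to 8734721 miRNA counts each. From RCD, 3 libraries stood apart. RCD 3 had the highest summed share of 6 of the 7 lists of miRNAs of other cell types, among them the neuronal list (1.27% of its miRNA counts, the other 23 libraries 0.414 to 0.574%) and the mesenchymal list (3.87%, others 0.942 to 2.53%), and the lowest share of the biliary list. By group medians, most of the neuronal sum was a single miRNA, miR-7a-5p (0.438 to 0.480%). In RCD 5 and RCD 8 the balance of the arms was shifted in many hairpins, as given below. Of 421 tested miRNAs, 87 in RCD 5, 90 in RCD 8 and still more in RCD 3 lay over 1 log2 unit from their median over all libraries, against 16 to 57 in the other 21 libraries. Results that rest on these libraries are given with and without them. No label says that each sample is a separate animal, so a p-value here reflects only how far samples of a group differ, which may be technical.

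miR-122-5p was the most abundant miRNA in all 24 libraries, and miR-148a-3p was second in all 24. The 5p strand took 22.8, 26.7 and 27.5% of miRNA counts in AM132 (lowest, median and highest of 8 libraries). In AM608 it took 20.3, 23.2 and 24.1%, and in RCD 15.7, 24.6 and 28.2%. Most AM132 libraries were above AM608, while the RCD libraries ran from below to above both obese groups. The counting error was far smaller than this spread, with 95% Wilson intervals of 0.0267 to 0.0361 percentage points to either side, which cover counting error only. The lead over miR-148a-3p was smallest in RCD 3, where the ratio of the shares was 1.08, and largest in AM132 7, where it was 1.96. Counts of different miRNAs also depend on how well each ligates and amplifies, so an order by counts is not an order by molecules.

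The 5p share was higher in AM132 than in AM608, at 25.7% ± 1.78 against 22.6% ± 1.53 (mean ± SD, n = 8 each). The difference was 3.09 percentage points (two-sided exact permutation test p = 0.00404, adjusted p = 0.0121 over 3 comparisons). The groups overlapped. In AM132, 6 of 8 libraries were above every AM608 library and 7 of 8 above the AM608 median. The permutation call held when each library was left out in turn, with a difference of 2.76 to 3.50 points. RCD averaged 23.5% ± 3.95, and neither obese group was told apart from it. AM608 minus RCD was −0.933 points (exact permutation adjusted p = 0.556) and AM132 was 2.15 points above RCD (exact permutation adjusted p = 0.288). Without RCD 3 the RCD mean was 24.7% ± 2.58 (n = 7). In bulk liver, fewer hepatocytes and less of this miRNA in each hepatocyte cannot be told apart.

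**Figure D1:**
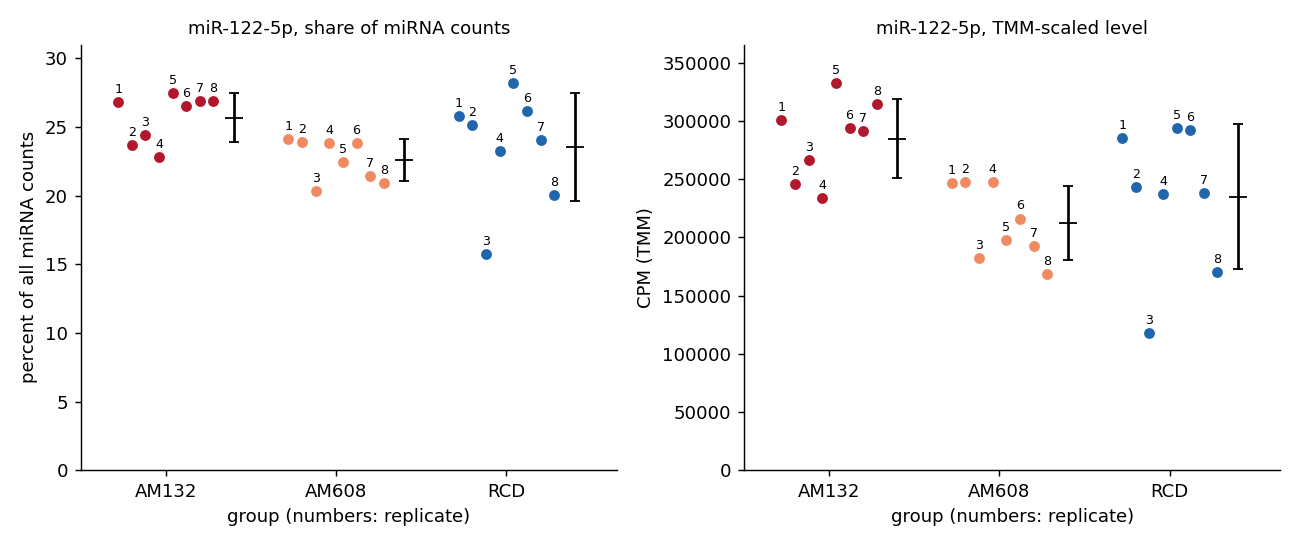
Level of miR-122-5p in each of 24 libraries as percent of all miRNA counts (left) and as CPM after TMM scaling (right). Points are libraries, numbered by replicate, and bars are mean ± SD (n = 8); RCD 3 is the lowest library in both panels, at 15.7% and 118011 CPM.

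The level after scaling was compared next. CPM here are counts relative to the library size multiplied by a TMM factor (trimmed mean of M values), which sets the bulk of miRNAs level between libraries. miR-122-5p was 234020, 292454 and 332157 CPM in AM132 (lowest, median and highest), 168639, 207044 and 247476 CPM in AM608, and 118011, 240554 and 293424 CPM in RCD. All 8 AM132 libraries were above the AM608 median and 6 were above every AM608 library, so the groups overlapped in 2 AM132 libraries. The log2 fold change of AM132 against AM608 was 0.42 (SE 0.142), a 1.34-fold higher level, and it lay just outside the threshold of 0.05 (edgeR adjusted p = 0.0517), where 12.4% of all 421 tested miRNAs were called. The call changed with the libraries in the fit. With only AM132 and AM608 the value was 0.39 (SE 0.0906, edgeR adjusted p = 0.00394), and without RCD 3 it was 0.40 (SE 0.105, edgeR adjusted p = 0.00966). It also passed without AM132 4 or without AM608 1 (edgeR adjusted p = 0.0470 and 0.0459). Leaving out any other single library did not bring it under the threshold. Other settings that passed are given at the end. AM608 against RCD gave −0.14 (SE 0.142, edgeR adjusted p = 0.477), with an approximate 95% interval of −0.42 to 0.13. There 28.7% of tested miRNAs were called. AM132 against RCD gave 0.28 (SE 0.142, edgeR adjusted p = 0.13), where 34.2% were called. The comparisons share groups, so their values are not independent of each other.

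Because miR-122-5p is such a large part of each library, its own level enters the library total against which every other miRNA can be read. How far TMM scaling changed without it is given below. The counts left for all other miRNAs were 77.3% ± 1.53 of the total in AM608 and 74.2% ± 1.77 in AM132. Together with the 5 next most abundant miRNAs, miR-122-5p took 60.0% ± 2.11 in AM608, 62.5% ± 5.09 in RCD and 64.4% ± 1.88 in AM132.

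**Figure D2:**
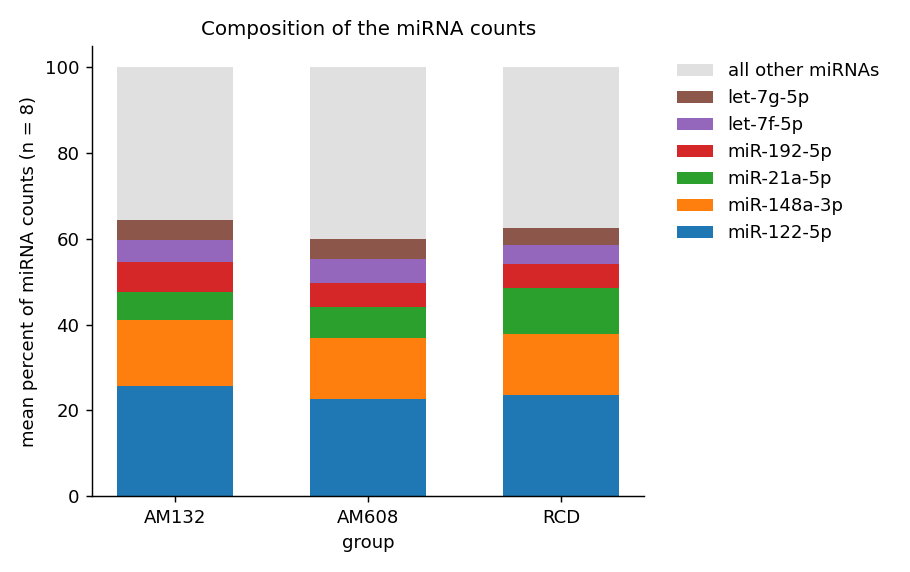
Mean percent of miRNA counts (n = 8 libraries per group) taken by the 6 most abundant miRNAs and by all others. miR-122-5p is the bottom block, and the 6 together reach 64.4% in AM132, 60.0% in AM608 and 62.5% in RCD.

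The other abundant miRNAs did not move as one. miR-192-5p, a guide strand abundant in hepatocytes and gut epithelium, was higher in AM132, at 6.09, 7.22 and 7.77% of miRNA counts (lowest, median and highest) against 5.24, 5.60 and 6.09% in AM608. Only the edges of those groups touched. Its log2 fold change was 0.58 (SE 0.116, edgeR adjusted p = 8.16e-04) and was 0.34 with library totals, still called (edgeR adjusted p = 9.84e-04). miR-148a-3p, a hepatocyte-abundant miRNA known to act on the LDL receptor, averaged 15.4% ± 1.32 in AM132, 14.4% ± 1.74 in AM608 and 14.3% ± 1.05 in RCD and was not called in any comparison with TMM, although upper-quartile factors gave a call for AM132 against AM608. miR-21a-5p, a growth- and injury-related miRNA, was lower in both obese groups, at 6.51% ± 1.02 in AM132 and 7.13% ± 1.06 in AM608 against 10.8% ± 0.692 in RCD (n = 8 each). Its highest obese library, at 8.63%, was below the lowest RCD library, at 9.71%. The log2 fold change was −0.56 for AM132 and −0.68 for AM608 against RCD (edgeR adjusted p = 2.71e-04 and 3.18e-05). The guide let-7f-5p averaged 5.05% in AM132, 5.63% in AM608 and 4.43% in RCD, and was higher than RCD in both obese groups (edgeR adjusted p = 4.49e-04 for AM132 and 0.00580 for AM608). Between AM132 and AM608 it was not called with TMM (0.08, edgeR adjusted p = 0.543) and was lower in AM132 with library totals (−0.16, edgeR adjusted p = 0.0223). The guide let-7g-5p averaged 4.64, 4.59 and 3.95% and was higher in AM132 than in RCD (edgeR adjusted p = 0.00169), while AM608 against RCD was not called with TMM (edgeR adjusted p = 0.257) but was with library totals (edgeR adjusted p = 0.0332).

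TMM factors were 0.907 ± 0.0497 in AM132, 1.08 ± 0.0988 in AM608 and 1.04 ± 0.149 in RCD (n = 8 each), so AM132 counts were scaled up and AM608 counts down. The library with the lowest 5p share, RCD 3, had the highest factor (1.34), and the library with the lowest factor, AM132 5 (0.827), had the second highest 5p share. Across the 8 libraries of a group, Pearson's r between 5p share and factor was −0.85 in AM132 (exact permutation p = 0.00511, adjusted p = 0.0307), −0.76 in AM608 (exact permutation p = 0.0341, adjusted p = 0.102) and −0.93 in RCD (exact permutation p = 0.00387, adjusted p = 0.0307). Spearman's rho was −0.86, −0.71 and −0.83 (exact permutation p = 0.0107, 0.0576 and 0.0154, adjusted p = 0.0615, 0.138 and 0.0615 over 12 relations). Without the 2 libraries whose factors lay farthest from the median, r was −0.74, −0.66 and −0.42, so the RCD value leaned on RCD 3 and RCD 8. Share and factor are computed from the same counts and are therefore tied by arithmetic.

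The choice of scaling set the size of the miR-122-5p difference and the split of all calls. With library totals the log2 fold change of AM132 against AM608 was 0.18 (edgeR adjusted p = 0.123), and the median of all 421 tested miRNAs was −0.21. With totals that leave out the miR-122 arms the values were 0.24 (edgeR adjusted p = 0.114) and −0.15. Leaving out the 5 next most abundant miRNAs as well gave 0.35 (edgeR adjusted p = 0.0865) and −0.03, close to the TMM values of 0.42 and 0.05. Relative to library totals, taking miR-122 out of the total shifted every log2 fold change by 0.06, taking out all 6 by 0.17, and TMM by 0.24. The parts of miR-122 and of the other 5 in this shift depend on which is taken out first, and the opposite order was not run. TMM factors computed without the miR-122 arms gave 0.40 for miR-122-5p (edgeR adjusted p = 0.0603), with 52 calls, 50 of them among the 52 with the full table. In AM608 against RCD they gave 120 calls, 119 of them shared with the 121, and in AM132 against RCD 132 calls, 130 of them shared with the 144. A scaling moves all log2 fold changes of a comparison by nearly the same amount, so the rank of miR-122-5p among them can hardly change. In AM132 against AM608 miR-122-5p lay above 88.1 to 88.4% of tested miRNAs in every one of these scalings, which is therefore no separate result.

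The split of calls over all miRNAs moved with the same choice. Of the 52 called in AM132 against AM608 with TMM, 17 were higher and 35 lower. With library totals, 91 were called, 8 higher and 83 lower, and 43 of the 91 were among the 52. Taking only the miR-122 arms out of the totals gave 82 calls, 8 higher and 74 lower, whereas taking out all 6 gave 53, with 13 higher and 40 lower. Upper-quartile factors turned the split over, at 38 higher and 28 lower, with a median of 0.15. In AM608 against RCD, the number of calls stayed between 115 and 128 and the share of higher calls ran from 39.1 to 53.8%. In AM132 against RCD the share of higher calls was 45.1% with TMM and 20.5% with library totals.

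**Figure D3:**
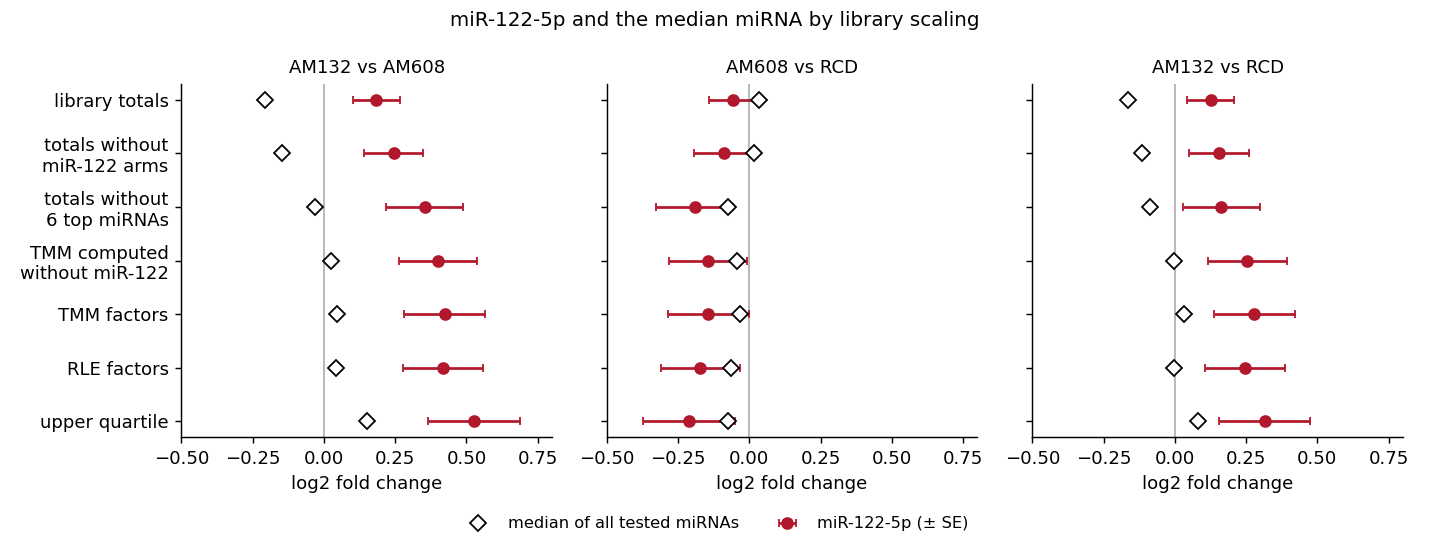
Log2 fold change of miR-122-5p (red points, ± SE) and the median log2 fold change of all 421 tested miRNAs (open diamonds) under 7 library scalings, for the 3 comparisons. In AM132 against AM608 both move together, from 0.18 and −0.21 with library totals to 0.53 and 0.15 with upper-quartile factors.

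Markers of other cells were set beside the 5p share. Within each group the share went with the summed share of the 7 lists of other cell types at r = −0.68 in AM132, −0.82 in AM608 and −0.79 in RCD (exact permutation p = 0.0496, 0.0240 and 0.0581, adjusted p = 0.116, 0.0958 and 0.116). Spearman's rho was −0.67, −0.83 and −0.38 (exact permutation adjusted p = 0.166, 0.0615 and 0.540). None passed after adjustment, and without RCD 1 and RCD 3 the RCD value was 0.14 (without the 2 libraries farthest out, AM132 −0.68 and AM608 −0.74). Both measures are shares of the same total. Single miRNAs also carried much of the lists. The endothelial miR-126a-3p had medians of 4.13% in AM132, 4.61% in AM608 and 3.37% in RCD. miR-146a-5p, at 0.485, 0.486 and 0.456%, was most of the leukocyte list. The sums are thus not an average over many markers. Summed list levels were highest in AM608 for mesenchymal miRNAs (median 2.11%, range 1.27 to 2.53%, against 1.42%, 0.942 to 1.68% in AM132 and 1.86%, 1.45 to 3.87% in RCD). Endothelial miRNAs had medians of 6.09% in AM608, 5.41% in AM132 and 4.70% in RCD (ranges 5.35 to 6.82%, 4.92 to 6.14% and 4.47 to 7.88%). In AM132 against AM608 2 of 8 mesenchymal and 0 of 4 endothelial miRNAs were lower, where 8.31% of all tested miRNAs were. The 2 were miR-199a-3p and miR-199b-3p, both at −0.74 on the log2 scale. Their counts were nearly equal (6782 to 49089 and 6781 to 49078 over the libraries). These calls are therefore not separate results, and both names enter the mesenchymal sum. The neuronal miR-124-3p had no count in 16 of 24 libraries. miR-142-3p, miR-142-5p and miR-486-5p were listed at 0 in all 24, so the leukocyte and erythroid sums hold nothing from them. Other members of those lists were counted in every library, miR-451a with 1214 to 14571 reads and miR-223-3p with 126 to 449. Whether the 0 values come from the way reads were assigned was not tested. The part of other cells in the miR-122-5p values was not tested. Total miRNA counts had an r with the 5p share of 0.17 in AM132, −0.01 in AM608 and −0.04 in RCD (exact permutation p = 0.684, 0.987 and 0.928, adjusted p = 0.821, 0.987 and 0.987; rho 0.29, 0 and −0.21, exact permutation p = 0.501, 1 and 0.619), and 0.54, 0.30 and 0.07 without the 2 libraries farthest out.

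Other miRNAs linked to hepatocytes were examined as a list of 16, all tested. Their levels here differed widely, from group means of 3.82 to 5.39 CPM for miR-33-5p, 6.20 to 8.62 CPM for miR-193a-3p and 35.6 to 48.0 CPM for miR-215-5p to 135976 to 170133 CPM for miR-148a-3p, and counts and medians over the list weigh each member equally. In AM132 against AM608, 3 were higher and 1 lower, where 4.04% of all tested miRNAs were higher and 8.31% lower, and the list's median log2 fold change was 0.23 beside 0.05 for all. The higher ones were miR-192-5p, miR-26a-5p and miR-99a-5p, and the lower one was miR-455-3p, from an intron of a collagen gene. miR-26a-5p, a brake on hepatocyte growth, was 0.20 log2 units higher (SE 0.0637, edgeR adjusted p = 0.0445), a value of −0.04 under library totals, and its call held in 3 of 24 fits with 1 library left out and was lost with TMM factors computed without miR-122. For miR-99a-5p the value was 0.36 (edgeR adjusted p = 0.0142), and under library totals 0.12 (edgeR adjusted p = 0.513). It was not called without AM608 7 or without AM608 8, with a lowest value of 0.30 and a highest edgeR adjusted p of 0.0872. miR-455-3p averaged 83.7 ± 96.8 CPM in AM132 and 494.9 ± 64.6 CPM in AM608, a log2 fold change of −2.56 (SE 0.412; edgeR gave an adjusted p of 4.57e-05). Without AM132 1 it was −3.28, and the call held in all 24 fits with 1 library left out. With library totals 1 was higher and 2 lower, and the median was −0.00313 beside −0.21 for all. Upper-quartile factors gave 7 higher, and leaving out RCD 3 gave 6 higher, with 1 lower each time.

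In AM608 against RCD the list had 1 higher and 1 lower member, where 13.5% of all tested were higher and 15.2% lower, with a median of −0.05 beside −0.03. miR-802-5p, a miRNA tied to glucose handling in obesity, rose by 1.93 log2 units (edgeR adjusted p = 5.34e-05), from 23.8 ± 20.7 to 90.8 ± 15.3 CPM, and miR-26a-5p had −0.24 (edgeR adjusted p = 0.00483). Without RCD 3 there were 2 higher and 2 lower. In AM132 against RCD 4 were higher and 1 lower, where 15.4% of all tested were higher and 18.8% lower, with a median of 0.22 beside 0.03. The higher ones were miR-192-5p, miR-194-5p, miR-99a-5p and miR-802-5p, and the calls of miR-194-5p and miR-99a-5p were lost with library totals (edgeR adjusted p = 0.120 and 0.131). There miR-26a-5p was called lower (−0.23, edgeR adjusted p = 0.00783), so 2 were higher and 2 lower, with a median of 0.04 beside −0.16 for all. The value of miR-122-5p itself in AM132 against AM608, 0.42, was above the list's median of 0.23 and below the 0.58 of miR-192-5p.

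The passenger strand was far rarer. miR-122-3p took 0.0595, 0.0791 and 0.0940% of miRNA counts in AM132 (lowest, median and highest), 0.0516, 0.0556 and 0.0693% in AM608, and 0.0451, 0.0682 and 0.279% in RCD. It ranked 49th to 61st among miRNAs in AM132, 62nd to 78th in AM608 and 33rd to 86th in RCD. The 2 highest libraries of all were RCD 5, with 19500 reads, and RCD 8, with 9884, and the other 6 RCD libraries had 0.0451 to 0.0710%. All 8 AM132 libraries were above the AM608 median, and 5 were above every AM608 library (7 in CPM). In CPM the means were 862.9 ± 141 in AM132, 534.4 ± 91.9 in AM608 and 991.1 ± 837 in RCD (n = 8 each), and in RCD 596.6 ± 138 without RCD 5 and RCD 8 (n = 6).

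Tests of miR-122-3p turned on RCD 5 and RCD 8. With all libraries the value for AM608 against RCD was −0.89 on the log2 scale (SE 0.295, edgeR adjusted p = 0.0242). Without RCD 5 and RCD 8, left out after their values were seen, it was −0.14 (SE 0.145, edgeR adjusted p = 0.526), and without RCD 5 or RCD 8 alone −0.41 and −0.78 (edgeR adjusted p = 0.130 and 0.0596). AM132 against AM608 was 0.69 (SE 0.294, edgeR adjusted p = 0.130) with all libraries. Without RCD 5 and RCD 8 it was 0.66 with a smaller SE (0.135, edgeR adjusted p = 0.00127), with only the 2 groups in the fit 0.66 (SE 0.107, edgeR adjusted p = 1.50e-04), and without RCD 5 alone 0.66 (edgeR adjusted p = 0.0189). The estimate thus hardly moved, while the spread shared over the 3 groups did. Its size depended on the scaling, at 0.46 with library totals and 0.80 with upper-quartile factors. AM132 against RCD was −0.20 (SE 0.293, edgeR adjusted p = 0.599) with all libraries and 0.52 (SE 0.147, edgeR adjusted p = 0.00805) without RCD 5 and RCD 8.

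The ratio of the arms needs no scaling, since both are counted in the same library. There were 243, 331 and 446 reads of the 5p strand for each read of the 3p strand in AM132 (lowest, median and highest), 348, 411 and 427 in AM608, and 101, 344 and 515 in RCD. AM608 libraries kept within a narrow band and AM132 libraries spread more widely, with 4 of 8 below every AM608 library and 1 above. RCD 5 and RCD 8, with 101 and 118, lay below all others, where the next lowest was AM132 4 with 243. As log2 ratios the means were 8.37 ± 0.328 in AM132, 8.64 ± 0.106 in AM608 and 8.15 ± 0.881 in RCD (n = 8 each), and 8.61 ± 0.263 in RCD without RCD 5 and RCD 8 (n = 6). The difference was −0.26 in AM132 against AM608 (SE 0.261, limma adjusted p = 0.617 over 107 hairpins with both arms tested), where 18.7% of hairpins were called. It was 0.49 in AM608 against RCD (limma adjusted p = 0.278), where 6.54% were called, and 0.22 in AM132 against RCD (limma adjusted p = 0.532), where 23.4% were called. Without RCD 5 and RCD 8 the 3 values were −0.26 (SE 0.126), 0.03 and −0.23 (limma adjusted p = 0.154, 0.923 and 0.216), so the direction of the last turned. No comparison of the arm ratio passed the threshold.

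**Figure D4:**
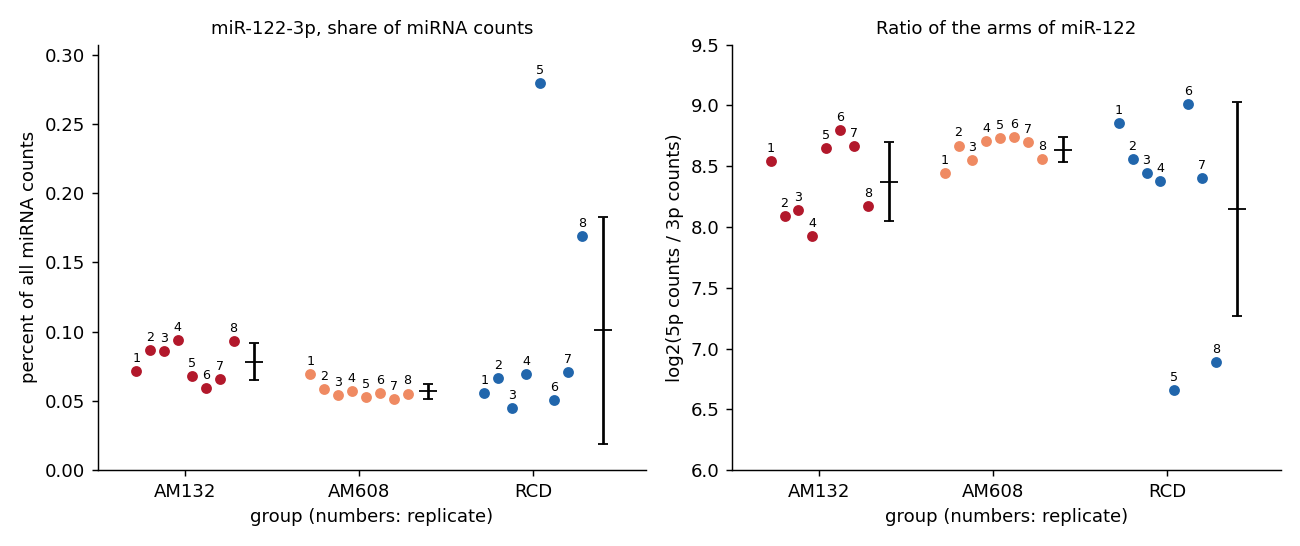
miR-122-3p as percent of miRNA counts (left) and the log2 ratio of 5p to 3p counts, with 0.5 added to each (right), in 24 libraries. Points are libraries, numbered by replicate, and bars are mean ± SD (n = 8); RCD 5 and RCD 8 stand at 0.279 and 0.169% and at log2 ratios of 6.66 and 6.89. The right axis starts at 6.

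By mean log2 ratio miR-122 was 6th of 107 hairpins in bias toward the 5p strand and 11th in bias toward either strand. Its neighbours above were miR-191 (8.67), miR-26b (9.55) and let-7i (10.9), and those below were miR-30d (7.85), miR-125a (7.78) and let-7b (7.77). Group means ran from 8.58 to 8.75 for miR-191 and from 7.74 to 7.95 for miR-30d, and from 6.95 in RCD to 9.18 in AM132 for let-7b. Over single libraries miR-122 ranged from 6.66 to 9.01 and miR-30d from 7.55 to 8.13.

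The shift of miR-122 in RCD 5 and RCD 8 was shared by other hairpins. In RCD 5, 22 of 107 hairpins lay more than 1 log2 unit from their median ratio over the 24 libraries, 13 toward the 3p strand and 9 toward the 5p strand, and in RCD 8 27 did, 13 and 14. The other 22 libraries had a median of 5 and a highest value of 17, in AM132 8. miR-122 moved by −1.90 in RCD 5 and −1.67 in RCD 8. Hairpins moved more than 1 unit toward the 3p strand in both libraries were 7, named here after their values were seen: miR-122, miR-192, miR-223, miR-23b, miR-342, miR-350 and miR-664. For miR-192, whose arms are shown above, the log2 ratio was 9.94 in RCD 5 and 11.8 in RCD 8 against 12.2 to 13.1 in the others. For miR-223, a myeloid miRNA whose 3p strand is the guide, it was −2.12 and −2.92 against −1.07 to −0.14. The 4 that moved toward the 5p strand in both were miR-130a, miR-30b, miR-345 and miR-582, with miR-30b at 4.19 and 5.26 against 1.82 to 3.38. miR-582 in RCD 5 (−0.89) and miR-345 in RCD 8 (−1.85) stayed within the range of the others, whose highest values were −0.47 and −1.75. The medians are over all groups, so differences between groups enter these moves, such as −2.64 for miR-582 in AM132 against RCD. The miRNA totals of RCD 5 and RCD 8 were 6982213 and 5836015, within the range of the other libraries. No label sets these libraries apart, and the cause was not tested.

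**Figure D5:**
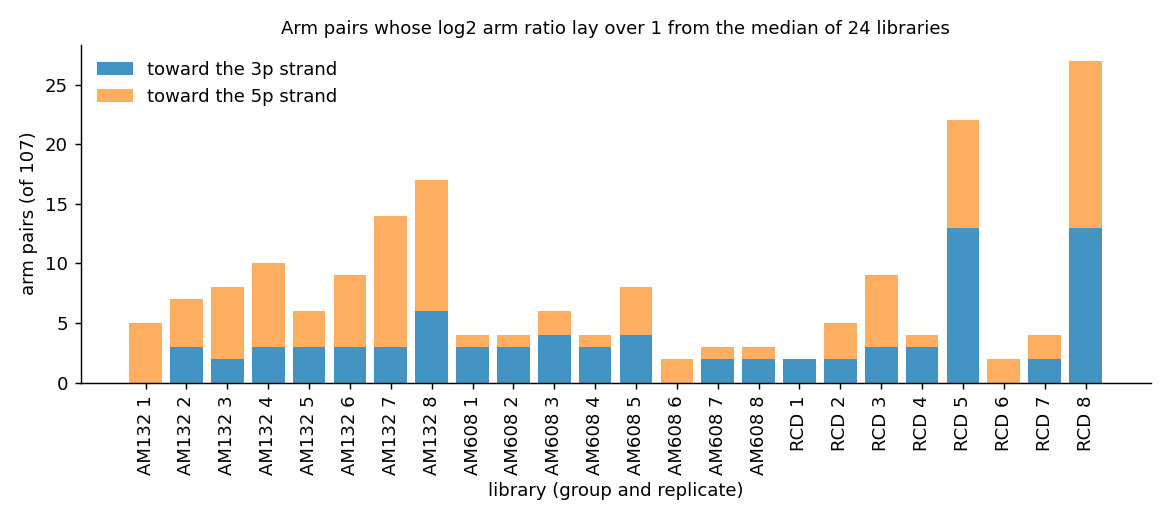
Number of hairpins, of 107 with both arms tested, whose log2 ratio of 5p to 3p counts lay more than 1 from its median over 24 libraries, split by direction, for each library. RCD 5 has 22 and RCD 8 has 27, and AM132 8 has 17.

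The arms varied apart from each other within groups. Across the 8 libraries of a group, r between the log2 shares of 5p and 3p was −0.65 in AM132, 0.60 in AM608 and 0.29 in RCD (exact permutation p = 0.0980, 0.0850 and 0.487, adjusted p = 0.147, 0.146 and 0.650), and −0.57, 0.59 and 0.54 without the 2 libraries whose 3p shares lay farthest from the median. Spearman's rho was −0.43, 0.79 and 0.19 (exact permutation p = 0.299, 0.0279 and 0.665, adjusted p = 0.513, 0.0838 and 0.725). None passed after adjustment, and whether the groups differ in this relation was not tested.

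Likeness to each arm was measured as Pearson's r of log2 share, after subtracting each group's mean, over 24 libraries and 128 other miRNAs of at least 100 CPM on average. Shares of a library add up to a fixed total, so those of other miRNAs are tied to that of miR-122-5p, and 19 of the 128 had a positive r with it (median −0.41). The most like were miR-192-5p (0.45), miR-101b-3p (0.45) and miR-194-2-3p (0.40). These values rested on RCD 3, without which they were −0.31, −0.25 and −0.29 and the most like were miR-1981-5p (0.52), miR-148a-3p (0.47) and miR-151-3p (0.47). The least like were miR-181a-5p (−0.87), miR-24-3p (−0.84) and miR-27a-3p (−0.82), with −0.70, −0.64 and −0.65 without RCD 3. None of these 3 is particular to hepatocytes.

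For miR-122-3p the most like were miR-365-3p (0.89), miR-30b-5p (0.80) and miR-16-5p (0.73), all of which were high in RCD 5 and RCD 8. miR-365-3p took 0.0839% of miRNA counts in RCD 5 and 0.0390% in RCD 8 against 0.0174 to 0.0277% in the other RCD libraries. miR-30b-5p took 0.0962 and 0.179% against 0.0328 to 0.0549%. Without these libraries r was 0.50, 0.44 and 0.45, and the most like were then miR-30a-5p (0.76), miR-194-5p (0.58) and miR-31-5p (0.58). The least like were miR-128-3p (−0.65), let-7d-5p (−0.59) and miR-423-3p (−0.57), with −0.39, −0.18 and −0.04 without RCD 5 and RCD 8. The arms themselves had r = 0.22 with each other over the 24 libraries, 0.20 without RCD 5 and RCD 8, and −0.08 without RCD 3.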

How the data were processed

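Raw read counts per mature miRNA in 24 liver libraries were used as deposited by the authors, per the file headers. The table of tRNA fragments was used for library totals, in an alternative 5p share. As percent of miRNA and tRNA fragment counts, AM132 was 3.06 points above AM608 (exact permutation adjusted p = 0.0121). Per the submitters' processing notes, FastQC was used. Per the labels' protocols, a NEBNext small RNA kit was used on total RNA. Aligner, trimming, build and the rule for reads matching several names: not given in the sources used here. Column headers carry the word Unique. How reads of near-identical miRNAs were assigned could change levels.

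The members and lists were chosen with earlier results of these data known. Counts were tested with edgeR 4.0.16 (R 4.3.3, robust quasi-likelihood fit, TMM, filterByExpr, group only, all 24 libraries), adjusted over 421 miRNAs at a threshold of 0.05; SE is the absolute log2 fold change over the square root of F. Arm ratios, log2 of (5p + 0.5) over (3p + 0.5) where a name has both arms tested, were fitted with limma 3.58.1. Shares were compared by exact permutation in SciPy 1.17.1. DESeq2 1.42.0 and limma voom were alternatives. The fits were tested on simulated data. Named were the members, the 5 next most abundant miRNAs, the 3 most and least like each arm, the 3 hairpins nearest in arm ratio on either side and called hepatocyte-list members. Of 62 listed names, 51 were tested; 3 were respelled to match the table. Summed shares per list are in the report for mesenchymal and endothelial miRNAs; medians in AM132, AM608 and RCD were 0.486, 0.547 and 0.515% for neuronal, 0.509, 0.507 and 0.492% for leukocyte, 0.0510, 0.0593 and 0.0767% for erythroid, 0.120, 0.245 and 0.163% for biliary and 0.00163, 0.00209 and 0.00336% for striated muscle miRNAs. All 84 pairs of libraries within a group differed beyond sampling noise, with a chi-square of at least 25.7 per degree of freedom.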

Additional observations from a re-analysis of the deposited data

Results flagged for a closer look

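Of 18 sets of 8 libraries examined for a value standing apart (both arms as share and CPM, the arm ratio and the TMM factor in each group), 2 had one by Dixon's criterion, which chance alone meets in about 1 in 20. The miR-122-3p level of RCD 5, 2908 CPM, was far above the other RCD libraries, the next being RCD 8 with 1441 CPM. The miR-122-3p share of AM608 1, 0.0693% of miRNA counts, was above the other AM608 libraries, whose highest was 0.0587%.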

How the results depend on the processing

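The miR-122-5p log2 fold change of AM132 against AM608 (0.42, edgeR adjusted p = 0.0517) passed the threshold with upper-quartile factors (0.53), a mean CPM of at least 10 (0.41), DESeq2 (0.42), only the 2 groups (0.39) and without both RCD 3 and AM132 8 (0.37); leaving out single libraries gave 0.36 to 0.46, passing without AM132 4, AM608 1 or RCD 3. For AM608 and AM132 against RCD no alternative run changed the side of the threshold for miR-122-5p. The miR-122-3p value of AM132 against AM608 passed with only the 2 groups and without RCD 5 and RCD 8 (0.66 in both; 0.60 without RCD 3 and AM132 8; single libraries 0.63 to 0.76, passing without RCD 5). In AM608 against RCD the miR-122-3p call was lost with no filter (−0.92, edgeR adjusted p = 0.0574), limma voom (−0.59), only the 2 groups (−0.93) and without RCD 5 and RCD 8 (−0.14), with −1.01 to −0.41 over single libraries. In AM132 against RCD the sign of miR-122-3p turned with limma voom (0.11), without RCD 5 and RCD 8 (0.52) and without RCD 5 (0.25; single libraries −0.36 to 0.25), and that of the arm ratio without RCD 5 and RCD 8 (−0.23; single libraries 0.011 to 0.35). Calls over all miRNAs in AM132 against AM608 numbered 52, and 91 with library totals, 82 with totals without miR-122 and 87 with only the 2 groups; in AM132 against RCD they numbered 144, and 94 at a mean CPM of at least 10. The cause of these changes was not tested, except that fewer miRNAs were tested at the higher CPM minimum. Replicate numbers did not pair the libraries: correlations of same-numbered libraries ran from −0.45 to 0.40, and 1, 1 and 2 of 8 correlated best with their own number. With the replicate block, miR-122-5p in AM132 against AM608 was 0.43 (edgeR adjusted p = 0.0401), its share difference 3.09 points (exact sign-flip permutation, adjusted p = 0.0938), miR-122-3p −0.64 in AM608 against RCD (edgeR adjusted p = 0.116) and 0.026 in AM132 against RCD; calls numbered 47, 109 and 132. Leaving out RCD 5 and RCD 8, and the 6 most abundant miRNAs from the totals, were chosen after seeing the data. Depth limits none of the miR-122-5p values, and the 3p strand had at least 2893 reads in each library.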
